A study of Mus musculus with 15 samples.

Results

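The 9 integrin subunits of the vessel wall described here are Itga1, Itga5, Itga7, Itga8, Itga9, Itgav, Itgb1, Itgb3 and Itgb5, taken as every probe set that the array's annotation gives to one of these symbols and to no other gene. They are 9 of the 18193 genes with a probe set of their own and were read by 29 probe sets, from 1 for Itga7 to 6 for Itgb1. RNA came from 15 samples of 10- to 12-week-old male C57BL6J mice and was hybridised to Affymetrix mouse 430 2.0 arrays. The groups were brain Notch3 -/- (5 arrays), brain Notch3 +/- (4), aorta Notch3 -/- (3) and aorta Notch3 +/- (3), where brain stands for smooth muscle cells and pericytes sorted from brain by flow cytometry and aorta for explants of the vessel. Each Notch3 +/- animal also lacks 1 copy of Notch3, the receptor of vascular mural cells, so the design holds no animal with both copies. The labels and the design text were the sources for these facts. How the Notch3 allele was made, which surface markers the sort used and how many animals gave each aorta array were not stated in those sources.

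Integrins are pairs of an alpha and a beta subunit that span the cell membrane, bind matrix proteins outside the cell and link them, through adaptors such as talin and filamin, to the actin cytoskeleton. Itgb1 pairs with Itga1, Itga5, Itga7, Itga8, Itga9 and Itgav, whereas Itgb3 and Itgb5 pair with Itgav among these subunits. In the vessel wall such pairs hold smooth muscle cells, pericytes and endothelium to collagen, laminin, fibronectin and vitronectin.

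Brain cells and aorta differed widely in these subunits. Itga1, an alpha subunit of collagen receptors, was higher in brain cells than in aorta in both genotypes. Itga5, Itga8, Itga9, Itgav, Itgb1 and Itgb5 were lower in both. Itgb3 also read lower, but it was too dim within brain and could be tested only through its brightness in aorta. Itga7, an alpha subunit of laminin receptors, was lower in brain cells than in aorta among Notch3 -/- arrays, and the difference did not pass the test among Notch3 +/- arrays. Between Notch3 -/- and Notch3 +/- arrays, none of the 13 probe sets tested in brain and none of the 20 tested in aorta passed a false discovery rate of 5%. Among the integrin probe sets, the smallest p in brain stood at Itgb5, whose 4 probe sets gave log2 differences from -0.76 to -0.26.

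All values are the deposited probe set intensities, which the authors scaled to a target of 150, and 49.0% to 57.2% of an array's probe sets lay under an intensity of 50. Notch3 itself read 150 to 249 in Notch3 -/- brain cells, against 2330 to 2810 in Notch3 +/- brain cells, and 80.1 to 146 in Notch3 -/- aorta, against 362 to 453 in Notch3 +/- aorta, at its brighter probe set. The brain arrays held the mural markers Acta2, Rgs5, Pdgfrb and Kcnj8, with group medians from 1830 to 17400, while Anpep, another pericyte marker, lay near 10. The mural list ran both ways between tissues. Of 12 mural markers tested in Notch3 -/- arrays, 3 were called higher and 7 lower in brain cells than in aorta. In Notch3 +/- arrays 5 of 12 were higher and 6 lower. The shares called were 83.3% and 91.7%, beside 62.5% and 51.8% of all probe sets. Myh11 had medians of 1020 in Notch3 -/- and 3200 in Notch3 +/- brain cells, against 8640 and 8430 in aorta. The brain arrays also held markers of other cells, with means over 50 in both genotypes for 11 of 11 endothelial, 7 of 7 astrocyte and 5 of 6 oligodendrocyte genes. The levels within these lists were uneven. Cldn5, Aldoc and Mbp, which were among the brightest, had group medians from 7390 to 23400, whereas Mog, a myelin gene, had 21.6 in Notch3 -/- and 11.9 in Notch3 +/- brain cells. The endothelial gene Pecam1 had medians of 97.3 in Notch3 -/- brain cells, against 435 in Notch3 -/- aorta, and 89.8 in Notch3 +/- brain cells, against 396 in Notch3 +/- aorta. Their part in the values below was not tested. In such bulk samples, fewer cells of a type and less RNA per cell cannot be told apart.

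RefSeq windows from 250 bases before to 50 bases after a transcript's start (GRCm38.p6) matched 7 of the 9 genes. Those of Itga9 and Itgav belong to transcripts that start 104983 and 2094 bases inside the gene and were left out of the motif counts. Those of 3 genes are shown: Itga8, which read far lower in brain cells than in aorta, Itga1, the member that ran the other way, and Itgb5, the member with the smallest p between genotypes in brain. Each is printed 5′ to 3′ in the direction of the gene, and capitals mark matches to the GC box GGGCGG or, on the other strand, its complement CCGCCC.
Itga8 (chr2:12301895-12302194, minus strand): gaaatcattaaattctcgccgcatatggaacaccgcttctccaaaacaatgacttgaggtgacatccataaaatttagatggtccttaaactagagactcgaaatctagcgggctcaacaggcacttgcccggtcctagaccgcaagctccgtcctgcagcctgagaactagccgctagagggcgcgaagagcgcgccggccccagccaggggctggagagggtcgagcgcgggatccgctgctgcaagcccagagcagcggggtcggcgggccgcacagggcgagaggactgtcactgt
Itga1 (chr13:115101915-115102214, minus strand): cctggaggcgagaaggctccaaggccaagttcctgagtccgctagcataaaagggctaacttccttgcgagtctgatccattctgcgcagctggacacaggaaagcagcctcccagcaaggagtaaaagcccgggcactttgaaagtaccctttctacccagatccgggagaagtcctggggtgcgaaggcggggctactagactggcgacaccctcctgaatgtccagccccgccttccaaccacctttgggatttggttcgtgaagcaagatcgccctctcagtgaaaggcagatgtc
Itgb5 (chr16:33829415-33829714, plus strand): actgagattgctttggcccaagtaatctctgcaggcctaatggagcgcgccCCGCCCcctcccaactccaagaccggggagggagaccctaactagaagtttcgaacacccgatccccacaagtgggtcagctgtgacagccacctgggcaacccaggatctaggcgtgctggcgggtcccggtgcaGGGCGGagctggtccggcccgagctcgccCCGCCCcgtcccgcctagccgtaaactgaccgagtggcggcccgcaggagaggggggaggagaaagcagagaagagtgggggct
The windows were searched on both strands for 4 motifs, the GC box, the RBPJ core TGGGAA, the AP-1 site TGANTCA and the CArG box, which serum response factor binds. The Itgb5 window held 3 GC boxes, that of Itga5 held 2, and that of Itgb1 held 1. The windows of Itga1 and Itga8 held none of the 4 motifs. Among all 32851 RefSeq windows, 35.7% held a GC box, 25.6% the RBPJ core, 7.81% the AP-1 site and 1.63% the CArG box. A match is a run of letters and says nothing of binding in these cells.

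The comparison of tissues asked where each subunit is expressed, in the 4 brain and 3 aorta arrays of Notch3 +/- mice and again in the 5 brain and 3 aorta arrays of Notch3 -/- mice. The 2 comparisons share no array. Differences are on the log2(intensity + 16) scale, so that folds of dim probe sets are understated. Each was tested with limma across the 22519 probe sets at or above the median brightness, with Benjamini-Hochberg adjustment at 5%. Of the 29 integrin probe sets, 16 were bright enough to be tested in Notch3 +/- arrays. Among these 1 was higher in brain and 14 were lower, beside 51.8% of all probe sets called in either direction, 26.5% higher and 25.2% lower. In Notch3 -/- arrays 15 were tested, of which 1 was higher and 14 lower, beside 62.5% called among all probe sets, 33.6% higher and 28.9% lower. The brightness filter took the mean over both tissues, so that a probe set could pass through aorta alone and then had to read lower in brain. Itgb3 and the second Itga8 probe set, which were too dim for the comparison within brain, passed in this way in both genotypes, and the second Itga5 probe set did so in Notch3 +/- arrays. Of the 13 integrin probe sets also bright enough within brain, 1 was higher and 12 lower in Notch3 -/- arrays, and 1 was higher and 11 lower in Notch3 +/- arrays. Their median difference was -2.28 in Notch3 -/- and -1.54 in Notch3 +/- arrays, where that of all tested probe sets was 0.11 and 0.07. These counts and medians describe the set and are not support for a direction. Tissue was bound up with the preparation, since brain cells were sorted straight into a column kit's lysis buffer and aorta RNA was first taken up in Trizol. These cannot be told apart from a difference between the tissues.

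**Figure D1:**
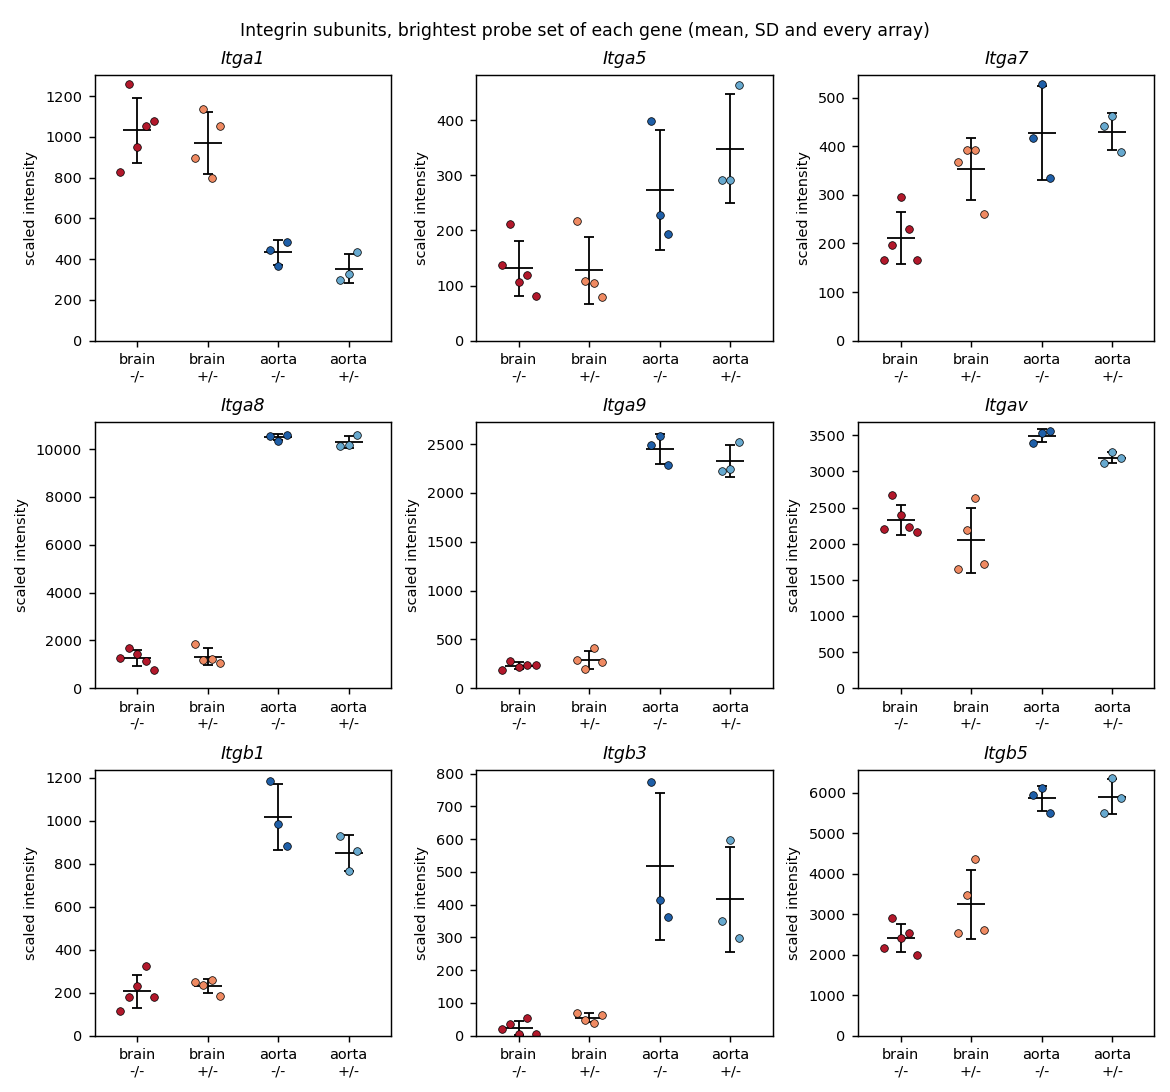
Scaled intensity (y axis, linear, from 0) of the brightest probe set of each of the 9 integrin subunits in every array, by group on the x axis, with the mean (horizontal line) and SD (bars). Itga1 was the one subunit higher in brain cells, Itga8, Itga9, Itgb1 and Itgb3 lay far lower in brain cells than in aorta, and the genotypes overlapped in every panel except that of Itgav in aorta.

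Itga1 and Itga7, alpha subunits of collagen and laminin receptors, ran in different directions among Notch3 -/- arrays. Laminin receptors had no common direction. Itga6, another of their alpha subunits, was higher in brain cells, at 4.07 in Notch3 -/- and 3.90 in Notch3 +/- arrays. Itga3 was lower among Notch3 -/- arrays, at -0.62, and its -0.33 in Notch3 +/- arrays did not pass the test. Itga1 read 826, 1257, 952, 1052 and 1078 in Notch3 -/- brain cells, against 446, 368 and 486 in Notch3 -/- aorta. In Notch3 +/- mice it read 899, 1136, 1053 and 796 in brain cells, against 298, 325 and 433 in aorta. Every brain array lay above every aorta array of either genotype. The difference was 1.22 in Notch3 -/- arrays (2.33-fold, 95% interval 0.89 to 1.55, limma adjusted p = 1.03e-05) and 1.43 in Notch3 +/- arrays (2.69-fold, 1.02 to 1.84, limma adjusted p = 8.97e-05). The other Itga1 probe set stayed between 1.71 and 52.6 in all 15 arrays and was not tested.

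Itga7, which with Itgb1 binds laminin in muscle, read 166, 197, 297, 230 and 167 in Notch3 -/- brain cells, against 418, 529 and 335 in Notch3 -/- aorta. Those groups did not overlap, and the difference was -0.97 (limma adjusted p = 0.000824). In Notch3 +/- mice Itga7 read 368, 392, 261 and 393 in brain cells, against 442, 462 and 388 in aorta, and the ranges overlapped. There the difference was -0.29 with a 95% interval from -0.69 to 0.11 (limma adjusted p = 0.208). That the genotypes differ in this step was not shown, since the difference of the 2 differences, -0.68, had a limma adjusted p of 0.997.

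Itga8, whose pair with Itgb1 binds nephronectin and fibronectin, was far lower in brain cells than in aorta. It read 1261, 1678, 1425, 1128 and 759 in Notch3 -/- brain cells, against 10555, 10357 and 10608 in Notch3 -/- aorta. The Notch3 +/- values were 1830, 1160, 1061 and 1202 in brain cells, against 10124, 10187 and 10571 in aorta. The aorta arrays of both genotypes thus fell within a narrow band far above all brain arrays. The difference was -3.10 in Notch3 -/- arrays (8.59-fold lower, limma adjusted p = 1.92e-08) and -2.99 in Notch3 +/- arrays (7.93-fold lower, limma adjusted p = 6.76e-07). The second Itga8 probe set lay between 39.2 and 59.2 in Notch3 -/- brain cells, against 1861 to 2010 in Notch3 -/- aorta, and between 3.92 and 109 in Notch3 +/- brain cells, against 1693 to 1792 in Notch3 +/- aorta. Its differences were -4.90 in Notch3 -/- and -5.14 in Notch3 +/- arrays, with brain readings near the floor, so that their size depends on the 16 added before the logarithm.

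Itga5 is the alpha subunit of the main fibronectin receptor. Its brightest probe set read 80.9 to 213 in Notch3 -/- brain cells, against 194 to 399 in Notch3 -/- aorta, and 80.0 to 217 in Notch3 +/- brain cells, against 291 to 463 in Notch3 +/- aorta. The Notch3 -/- ranges overlapped and the difference of -0.97 (limma adjusted p = 0.00617) was lost when aorta array 5558 was left out (limma adjusted p = 0.0515). In Notch3 +/- arrays the ranges stood apart, with a difference of -1.39 (limma adjusted p = 0.00224). A second Itga5 probe set read under 20 in every brain array, from 1.47 to 17.1 in Notch3 -/- and 3.04 to 8.57 in Notch3 +/- cells, against 180 to 198 and 212 to 287 in the aorta of those genotypes. The dimmer Itga5 probe sets were not tested between tissues. The brighter of them read 12.6 to 50.5 in Notch3 -/- brain cells, against 36.2 to 45.8 in Notch3 -/- aorta, with overlap. In Notch3 +/- mice it read 15.4 to 34.1 in brain cells, against 44.1 to 67.8 in aorta. The dimmest read 4.71 to 25.6 in Notch3 -/- brain cells, against 26.8 to 84.6 in Notch3 -/- aorta.

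Itgav, the alpha subunit shared by vitronectin and latent TGF-beta receptors, showed the smallest step among the subunits called in both genotypes. It read 2197, 2668, 2391, 2235 and 2166 in Notch3 -/- brain cells, against 3393, 3534 and 3556 in Notch3 -/- aorta. Notch3 +/- mice gave 1646, 2185, 1721 and 2627 in brain cells, against 3116, 3268 and 3191 in aorta. The tissues did not overlap in either genotype. The difference was -0.58 in Notch3 -/- arrays (limma adjusted p = 0.000552) and -0.66 in Notch3 +/- arrays (1.58-fold lower, limma adjusted p = 0.0114). The other 4 Itgav probe sets did not exceed 65.0 on any array and were not tested.

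Itga9, which with Itgb1 binds tenascin-C and osteopontin, was near Itga8 in its step. It read 185 to 280 in Notch3 -/- brain cells, against 2285 to 2581 in Notch3 -/- aorta, a difference of -3.33 (10.0-fold lower, limma adjusted p = 4.05e-10). In Notch3 +/- mice it read 196 to 414 in brain cells, against 2224 to 2520 in aorta, a difference of -2.98 (7.88-fold lower, limma adjusted p = 1.52e-06). A second Itga9 probe set gave -2.69 and -2.62. The third was not tested between tissues and read 1.57 to 23.3 in the brain arrays, against 98.9 to 156 in the aorta arrays.

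Itgb1, the most widely paired beta subunit, read 116, 179, 230, 325 and 182 at its brightest probe set in Notch3 -/- brain cells, against 1186, 988 and 882 in Notch3 -/- aorta. In Notch3 +/- mice it read 251, 235, 184 and 258 in brain cells, against 930, 765 and 862 in aorta. All aorta arrays stood above all brain arrays. The difference was -2.28 in Notch3 -/- arrays (4.85-fold lower, limma adjusted p = 2.26e-06) and -1.81 in Notch3 +/- arrays (3.51-fold lower, limma adjusted p = 8.06e-06). A second probe set gave -3.13 and -2.51. Of the other 4 Itgb1 probe sets, 3 did not exceed 28.4 on any array, and the fourth read at most 11.3 in brain cells, against 75.8 to 136 in aorta. The probe sets of this gene thus differ widely in brightness, and levels of different probe sets were not set against each other.

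Itgb3, the beta subunit of platelets that also pairs with Itgav in the vessel wall, was close to the floor in brain cells. It read 19.2, 35.8, 4.45, 52.7 and 5.79 in Notch3 -/- brain cells, against 774, 414 and 363 in Notch3 -/- aorta. Notch3 +/- mice gave 69.1, 47.5, 62.7 and 40.1 in brain cells, against 351, 599 and 298 in aorta. The difference was -3.83 in Notch3 -/- arrays (limma adjusted p = 1.14e-06) and -2.57 in Notch3 +/- arrays (limma adjusted p = 1.22e-05). Summed platelet markers overlapped between the tissues. They were 819 to 1259 in Notch3 -/- brain cells, against 840 to 1530 in Notch3 -/- aorta. In Notch3 +/- mice they were 763 to 1343 in brain cells, against 844 to 901 in aorta. Single markers were uneven. In Notch3 -/- arrays Ppbp had a median of 52.7 in brain cells, against 197 in aorta, and Gp1bb 215, against 106. The part of platelets in the Itgb3 values was not tested.

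Itgb5 pairs with Itgav to bind vitronectin. At its brightest probe set it read 2168, 2908, 2410, 2550 and 2005 in Notch3 -/- brain cells, against 5957, 6127 and 5511 in Notch3 -/- aorta, and 2548, 3469, 2612 and 4358 in Notch3 +/- brain cells, against 5505, 6359 and 5870 in Notch3 +/- aorta. No brain array reached the lowest aorta array. The difference was -1.29 in Notch3 -/- arrays (2.44-fold lower, limma adjusted p = 1.85e-06) and -0.89 in Notch3 +/- arrays (1.86-fold lower, limma adjusted p = 0.00384). The other 3 probe sets gave -1.68 to -3.24 in Notch3 -/- and -1.37 to -2.42 in Notch3 +/- arrays, so that the gene's 4 probe sets had 1 direction and unlike sizes.

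**Figure D2:**
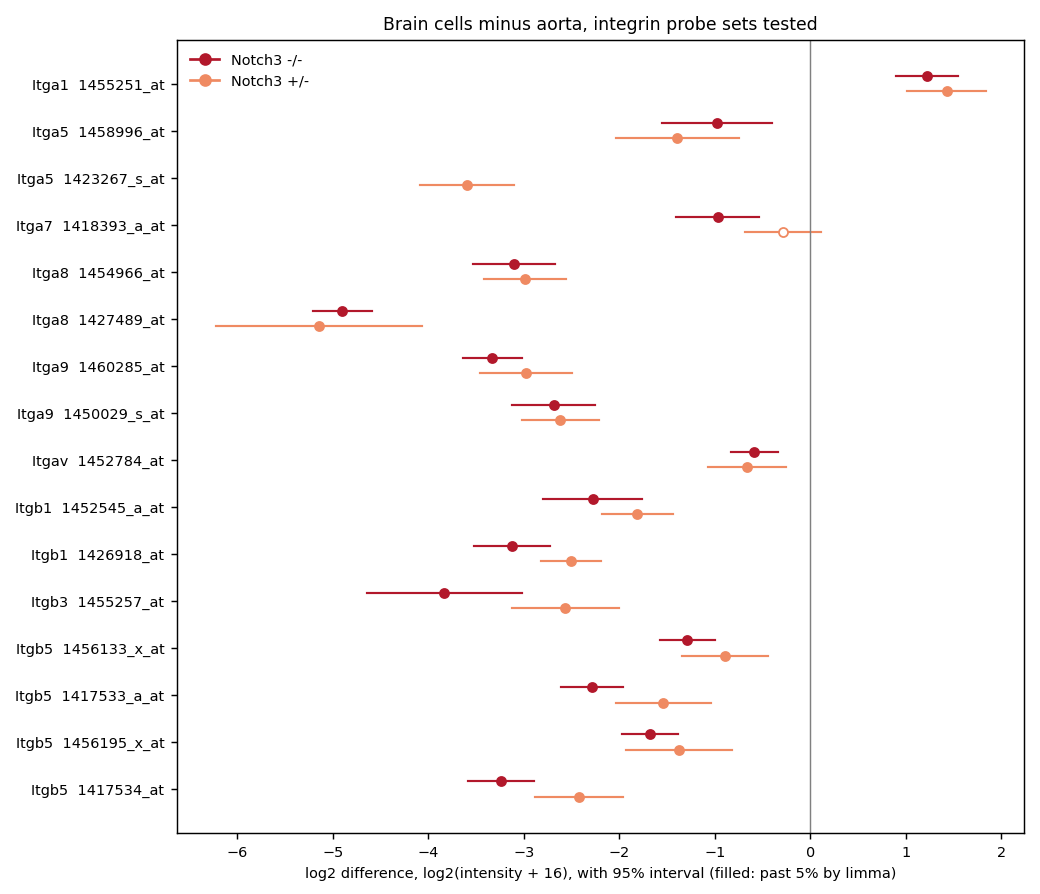
Brain minus aorta difference (x axis, log2 of intensity + 16) with its 95% interval for each integrin probe set tested (rows), in Notch3 -/- arrays (dark) and Notch3 +/- arrays (light). Filled points passed 5% by limma. Itga1 lies right of 0 in both genotypes, all others lie left of it, and the open point is Itga7 in Notch3 +/- arrays.

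Ordered by group mean of the brightest probe set, both aorta groups stood above both brain groups for 8 subunits and below them for Itga1. For Itga1, Itga8, Itga9, Itgb1, Itgb3 and Itgb5 the 2 aorta groups overlapped each other and the 2 brain groups did as well, so that the step between tissues was the only one beyond the spread of the arrays. Itgav had a second step, between Notch3 -/- and Notch3 +/- aorta. For Itga5 and Itga7 each group overlapped its neighbour in that order. Within a group the SD of Itga1 was 13.8% to 20.2% of its mean, whereas that of Itgb3 in Notch3 -/- brain cells was 87.4% of its mean.

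The brain comparison is the one that the study's design text names, and it set 5 Notch3 -/- arrays against 4 Notch3 +/- arrays. Of the 29 integrin probe sets 13 were tested, and none was called. Among all probe sets 0.142% were called, 5 higher and 27 lower in Notch3 -/- cells. At an unadjusted p below 0.05 stood 5 of the 13 integrin probe sets, all lower in Notch3 -/- cells and 3 of them probes of Itgb5, beside 9.39% of all probe sets, or 4.6% that were lower. The groups stood apart at 2 integrin probe sets, both of Itgb5 and both lower, beside 1.85% of all probe sets. The median difference of the 13 was -0.26, and that of all tested probe sets 0.01.

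Itgb5 read 198, 288, 243, 215 and 195 at its dimmest probe set in Notch3 -/- brain cells, against 312, 443, 331 and 524 in Notch3 +/- brain cells. The groups did not overlap. The difference was -0.76 with an SE of 0.19 (95% interval -1.16 to -0.36, limma adjusted p = 0.202). It passed 5% when the spread was estimated from all 15 arrays (limma adjusted p = 0.0483). That fit took in the aorta arrays and raised the calls among all probe sets from 32 to 137. The second brightest Itgb5 probe set read 652 to 959 in Notch3 -/- cells, against 1007 to 1899 in Notch3 +/- cells, also without overlap, a difference of -0.62 (limma adjusted p = 0.329). The brightest gave -0.41 (limma adjusted p = 0.517) and the third -0.26 (limma adjusted p = 0.751), and at both the groups overlapped. The 4 probe sets share the gene and the arrays and are not independent readings. After group means were taken out, each pair of them correlated at r from 0.709 to 0.93 over the 15 arrays.

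**Figure D3:**
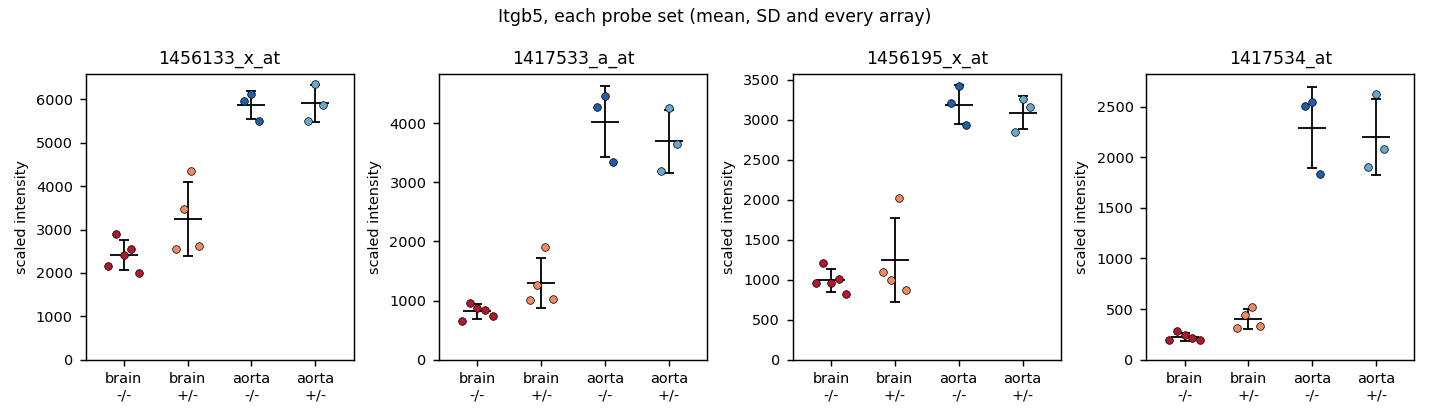
Scaled intensity (y axis, linear, from 0) at each of the 4 Itgb5 probe sets (panels, brightest on the left) in every array, by group on the x axis, with the mean (line) and SD (bars). All brain arrays lie under the aorta arrays in each panel, and the Notch3 -/- and Notch3 +/- brain arrays stand apart in the second and the fourth panel and overlap in the other two.

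Summed levels of the 13 mural markers also differed between the brain genotypes. They were 34362 to 41108 in Notch3 -/- brain cells, against 46317 to 78728 in Notch3 +/- brain cells, without overlap. Of the 12 mural markers tested 3 were called lower in Notch3 -/- cells, beside 0.12% of all probe sets. Bright genes weigh most in such a sum, and the list was uneven, with 10 of the 12 lower and 2 higher. Myh11, the smooth muscle myosin, had a median of 1020 in Notch3 -/- cells, against 3200 in Notch3 +/- cells. The medians of Kcnj8 were 2330 and 1830 in those groups, and those of Cspg4 1180 and 1130. The sum of the 10 fibroblast markers ran the other way, from 6265 to 7992 in Notch3 -/- cells, against 3416 to 5937 in Notch3 +/- cells, with none of 9 called. Endothelial sums overlapped, at 24556 to 30487 and 20708 to 35381 in those groups. The part of these markers in the Itgb5 values was not tested.

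Itga7 came next by p. Its Notch3 -/- brain arrays had a mean of 211 ± 54.5 (SD, n = 5), against 353 ± 62.9 (SD, n = 4) in Notch3 +/- brain cells, and the ranges overlapped through 1 array on each side. The difference was -0.71 with a 95% interval from -1.13 to -0.29 (limma adjusted p = 0.271). Itgb1 read 101, 126, 199, 163 and 150 at its second brightest probe set in Notch3 -/- cells, against 206, 200, 190 and 186 in Notch3 +/- cells. The difference was -0.40 (limma adjusted p = 0.521). Its brightest probe set gave -0.22 with an interval from -0.72 to 0.28.

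The other subunits tested in brain had smaller differences and wide intervals. Itgav gave 0.21 with a 95% interval from -0.14 to 0.56, Itga1 0.09 (-0.26 to 0.44), Itga5 0.06 (-0.53 to 0.65), Itga8 -0.08 (-0.56 to 0.39) and Itga9 -0.27 (-0.70 to 0.15). Itgb3 was too dim in brain to be tested there, with a mean of 23.6 ± 20.6 in 5 Notch3 -/- arrays, against 54.8 ± 13.4 in 4 Notch3 +/- arrays (SD), and its ranges overlapped.

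In aorta, 3 Notch3 -/- arrays were set against 3 Notch3 +/- arrays. Of the integrin probe sets 20 were tested and none was called, beside 0% of all 22519 probe sets. None had an unadjusted limma p below 0.05, beside 4.35% of all probe sets. The groups stood apart at 3 integrin probe sets that read higher in Notch3 -/- aorta and 1 that read lower, beside 4.72% and 4.75% of all probe sets. Those higher were Itgav, a second probe set of Itga8 and a second of Itgb1, and the lower one was the second of Itga5. Itgav averaged 3495 ± 88.5 in Notch3 -/- aorta and 3192 ± 76.1 in Notch3 +/- aorta (SD, n = 3 each), a difference of 0.13 with a 95% interval from -0.0044 to 0.26 (limma adjusted p = 0.999). The interval of Itga8 was the narrowest, -0.07 to 0.13, and that of Itgb3 the widest, -0.41 to 0.98. Itgb5 differed by -0.01 to 0.12 over its 4 probe sets. The aorta names form a 55xx series, with 2 arrays of each genotype, and a 61xx series, with only 1 of each. Within them the difference kept its sign for Itga1, Itgav, Itgb1 and Itgb3 and not for Itga5, Itga7, Itga9 and Itgb5, while Itga8 was 0.04 and 0.00.

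**Figure D4:**
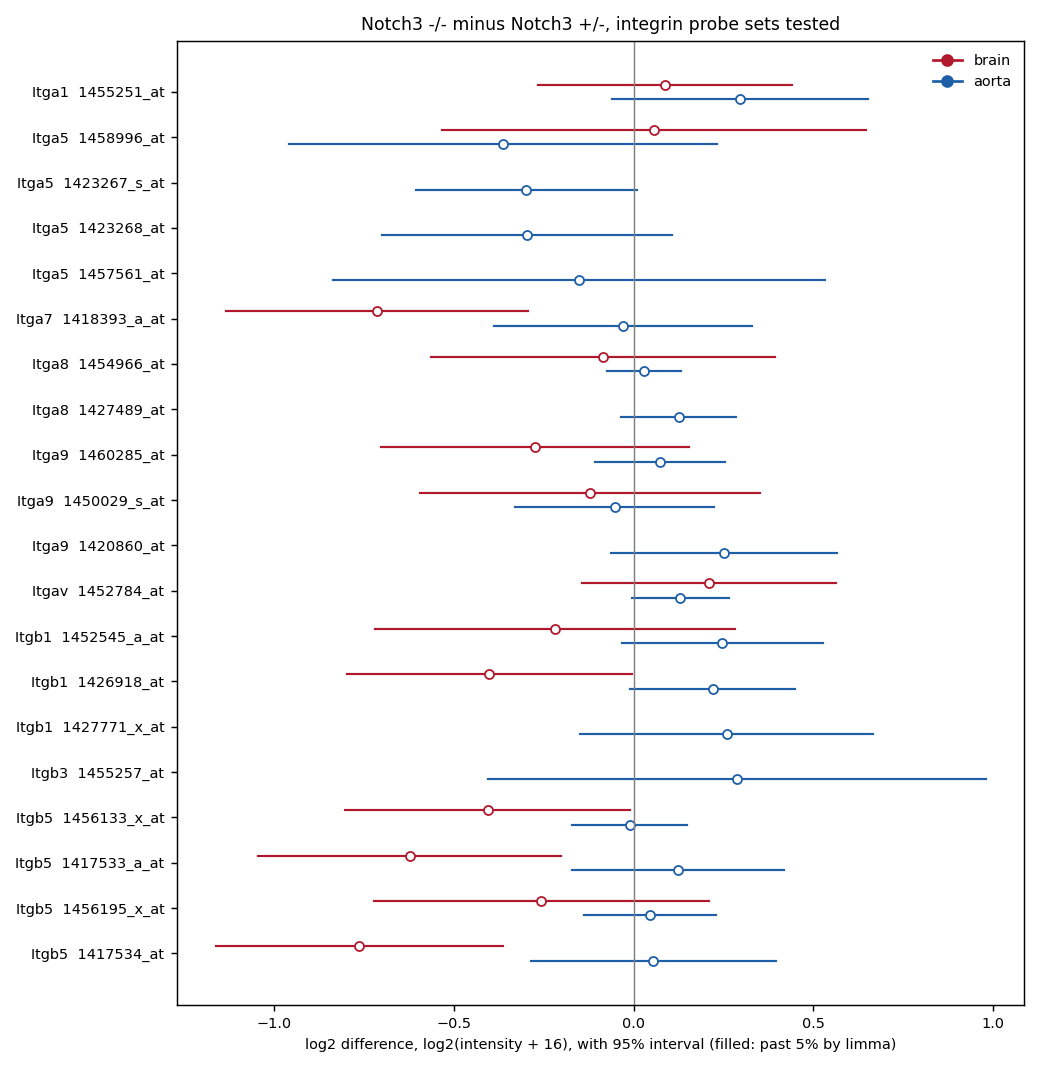
Notch3 -/- minus Notch3 +/- difference (x axis, log2 of intensity + 16) with its 95% interval for each integrin probe set tested (rows), in brain (red) and aorta (blue). All points are open, since none passed 5% by limma, and the brain points of Itga7, of the second Itgb1 probe set and of 3 Itgb5 probe sets have intervals wholly below 0.

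Whether the genotype difference itself differed between tissues was tested in 1 fit over all 15 arrays. Of the 15 integrin probe sets tested none was called, beside 0.0178% of all probe sets. An unadjusted limma p below 0.05 was found for 5, all more negative in brain, beside 4.76% of all probe sets, or 2.26% in that direction. They were the dimmest probe set of Itgb5 at -0.82, its second brightest at -0.75, the second brightest of Itgb1 at -0.62, Itgb3 at -1.27 and Itga7 at -0.68, with limma adjusted p from 0.824 to 0.997. Itgb3 averaged 23.6 in Notch3 -/- and 54.8 in Notch3 +/- brain cells, too dim to be tested there, and entered this fit through aorta, so that its value rests on brain readings near the floor. This contrast uses the same arrays as the comparisons within each tissue and is no further evidence for them.

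Other members of the integrin family were read alongside. Of 17 further subunits listed 15 were measured. In Notch3 +/- arrays 4 of the 8 tested were higher in brain cells than in aorta and none was lower. In Notch3 -/- arrays 5 of 9 were higher and 1 was lower. The shares called, 66.7% in Notch3 -/- and 50% in Notch3 +/- arrays, were close to the 62.5% and 51.8% of all probe sets. The median difference of those tested was 0.54 in Notch3 -/- and 0.41 in Notch3 +/- arrays. Itga6, an alpha subunit of laminin receptors, averaged 1233 ± 240 in Notch3 -/- brain cells (SD, n = 5), against 60.3 ± 25.5 in Notch3 -/- aorta (SD, n = 3), a difference of 4.07. Its difference in Notch3 +/- arrays was 3.90. Itga4, which pairs with Itgb1 to bind VCAM-1 and fibronectin, gave 1.72 and 1.69 in those genotypes, and Itgb8, which pairs with Itgav, gave 1.72 and 1.25. Itga3, another alpha subunit of laminin receptors, was lower in brain cells than in aorta among Notch3 -/- arrays, at -0.62. Itga2b, the platelet alpha subunit, was higher in both genotypes, at 0.61 in Notch3 +/- arrays, where leaving out single arrays ended the call (limma adjusted p up to 0.0797). Itgax, a leukocyte subunit, was higher in brain cells than in aorta among Notch3 -/- arrays at 0.62, a call lost without aorta array 5559 (limma adjusted p = 0.0543). None of the 9 tested passed 5% between genotypes in brain, nor did any of the 9 tested in aorta.

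Matrix proteins that these receptors bind were compared between tissues as well. Of 27 listed ligands tested, 6 were higher and 18 lower in brain cells than in aorta in Notch3 -/- arrays, and 6 were higher and 17 lower in Notch3 +/- arrays, with median differences of -1.08 and -1.23. These are 88.9% and 85.2% of the ligands, beside 62.5% and 51.8% called among all probe sets. Vitronectin, Vtn, averaged 8726 ± 2115 in Notch3 -/- brain cells, against 7.09 ± 6.84 in Notch3 -/- aorta, and 10998 ± 4294 in Notch3 +/- brain cells, against 22.1 ± 12.0 in Notch3 +/- aorta (SD). Its differences of 8.57 and 8.14 ran opposite to those of Itgav, Itgb3 and Itgb5, which are subunits of its receptors. Vtn, counted among the ligands called higher, was too dim to be tested within aorta. It passed the brightness filter through brain and then had to read higher there. With aorta readings near the floor, the size of its differences depends on the constant added before the logarithm. Itgb3 passed through aorta alone, so the filter set the opposite directions of Vtn and Itgb3. Itgav and Itgb5 were bright enough within both tissues. Itgb8, another partner of Itgav, was higher in brain cells, at 1.72 in Notch3 -/- and 1.25 in Notch3 +/- arrays. Lamb1, a laminin chain, was higher in brain cells by 2.25 in Notch3 -/- and 1.58 in Notch3 +/- arrays. Mfge8, a ligand of Itgav pairs, was higher by 0.93 and 1.28. The basement membrane collagens Col4a2, at 0.86 in Notch3 -/- arrays, and Col4a1, at 0.77 in Notch3 +/- arrays, were higher in brain cells as well.

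Nephronectin, Npnt, the ligand of Itga8 with Itgb1, was lower in brain cells, as its receptor was. It averaged 303 ± 90.7 in Notch3 -/- brain cells, against 5100 ± 179 in Notch3 -/- aorta, a difference of -4.06, and gave -4.58 in Notch3 +/- arrays. Periostin, Postn, gave -5.01 in Notch3 -/- and -5.29 in Notch3 +/- arrays, and fibulin-5, Fbln5, an elastic fibre protein, gave -4.28 and -4.37. Tenascin-C, Tnc, a ligand of Itga9, was lower in brain cells at -3.17 in Notch3 -/- arrays, and the fibrillar collagen Col3a1 at -3.61 in Notch3 +/- arrays. Summed fibroblast markers were 6265 to 7992 in Notch3 -/- brain cells, against 32180 to 33696 in Notch3 -/- aorta, and 3416 to 5937 in Notch3 +/- brain cells, against 31526 to 35660 in Notch3 +/- aorta. Their part in these ligand differences was not tested. Between genotypes none of the 27 ligands tested in brain and none of the 26 tested in aorta passed 5%.

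Of 43 proteins listed that bind integrin tails or work beside them, 39 were tested. Between genotypes in brain 1 was called, or 2.56%, beside 0.142% of all probe sets. It was the actin crosslinker Flna, which binds beta subunit tails. Flna averaged 1043 ± 226 in Notch3 -/- brain cells (SD, n = 5), against 2290 ± 241 in Notch3 +/- brain cells (SD, n = 4), and the groups did not overlap. The difference was -1.14 (limma adjusted p = 0.0204). The call was lost without brain Notch3 +/- array G (adjusted p = 0.0885) or brain Notch3 -/- array F (adjusted p = 0.0514). Mural marker sums were also lower in Notch3 -/- brain cells, as given above, and their part in the Flna values was not tested. In aorta none of the 39 was called.

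Between tissues 13 of the 39 were higher and 20 lower in brain cells in Notch3 -/- arrays, and 12 were higher and 19 lower in Notch3 +/- arrays, with median differences of -0.48 and -0.38. The shares called were 84.6% in Notch3 -/- and 79.5% in Notch3 +/- arrays, beside 62.5% and 51.8% of all probe sets. Among the higher were the scaffold proteins Pxn, at 2.13 in Notch3 -/- and 1.85 in Notch3 +/- arrays, and Bcar1, at 1.93 and 2.01. Parvb, a partner of integrin-linked kinase, was higher by 2.69 and 3.31. Cd151, a tetraspanin at 1.54 in Notch3 -/- arrays, and Tln2, a talin at 1.45 in Notch3 +/- arrays, were higher as well. Among the lower were the tetraspanin Cd9, at -4.28 in Notch3 -/- and -3.55 in Notch3 +/- arrays, and Kank1, which binds talin, at -4.00 and -3.33. The focal adhesion proteins Tns1, at -2.73 and -2.36, and Zyx, at -2.56 and -2.47, were lower in both genotypes.

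Co-variation between arrays was taken as Pearson's r of log2 values over the 15 arrays after each group's mean was subtracted, and is given as a description. Among the 36 pairs of the 9 subunits, Itgav and Itgb5, which together form a vitronectin receptor, had the highest value at r = 0.933 (Spearman's rho = 0.85). The 9 brain arrays carried it, with r = 0.956, against 0.377 in the 6 aorta arrays. Without brain Notch3 +/- array H, which lay farthest above its group mean for both, r was 0.891, and without the 2 arrays farthest from the median of Itgav it was 0.862. The next pairs were Itga5 with Itga8 at 0.746 and Itga7 with Itgb1 at 0.602, and the lowest was Itga1 with Itga7 at -0.341. All such values share the arrays' scaling and RNA quality.

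**Figure D5:**
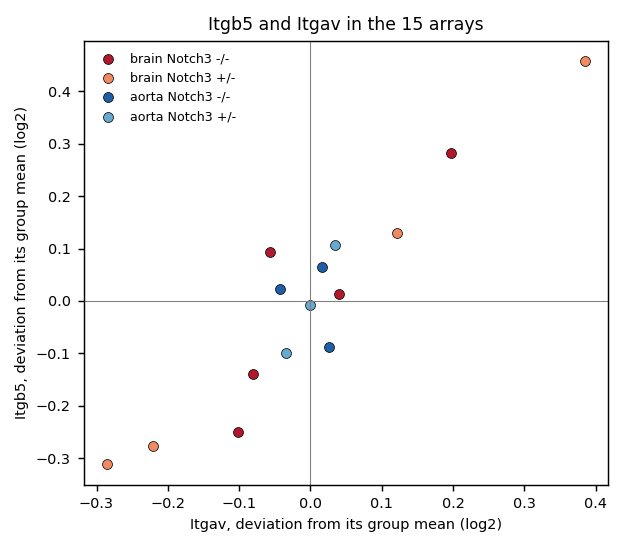
Deviation of each array from its group mean (log2 of intensity + 16) for Itgav (x axis) and Itgb5 (y axis) at the brightest probe sets, 1 point per array, coloured by group. The brain arrays spread along a diagonal with brain Notch3 +/- array H at its upper end, and the aorta arrays lie near the centre.

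By the same measure, the 2 genes most like each subunit were picked from 11972 others. For Itgb5 they were Arfgap3 (r = 0.93) and Plin3 (0.92), for Itgav Mybbp1a (0.945) and Pmepa1 (0.922), and for Itga8 Pawr (0.943) and Pnrc1 (0.933). Itga7 was most like Cpsf1 (0.912) and Mical1 (0.85), Itga9 most like Anapc15 (0.915) and Prrx2 (0.882), and Itga5 most like Dsg2 (0.873) and Snhg1 (0.86). Itgb1 had Cwc15 (0.873) and Shisa3 (0.869), Itga1 had Cyth3 (0.851) and Arid4b (0.839), and Itgb3, with the lowest values, had Arf2 (0.817) and Iftap (0.797). These are the highest of 11972 values for each subunit, and no test was made of them.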

How the data were processed

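Per the labels' protocols and the series' design text, sorted brain cells came from 5 Notch3 -/- and 4 Notch3 +/- mice, each aorta group has 3 arrays, and 15 µg of cRNA went on an array. The deposited values are linear intensity per probe set, brought by the authors to a common target of 150, per the design text. How probes were summarised, any background correction and a genome build are not stated there. The number of arrays limits the precision. Nothing says that the 3 aorta arrays per genotype are separate animals, so their p-values measure the spread between samples.

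The table held 45101 probe sets: 34958 with 1 gene symbol, 932 with several and 9211 with none. Symbols were updated through Entrez identifiers in a RefSeq table (GRCm38.p6): 34754 matched and 204 kept the older symbol. Without the 64 control probe sets, values were taken as log2(value + 16), and probe sets at or above the median mean of the arrays in a fit entered limma 3.58.1 under R 4.3.3. Its two-sided test used lmFit and eBayes with a trend over intensity, and p-values were adjusted by Benjamini-Hochberg at a 5% false discovery rate, on the arrays compared only or, for the difference between tissues, on all 15. The scripts were tested on simulated data. Replicates of a group correlated at r from 0.932 to 0.981.

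The members and the gene lists were chosen with earlier results of these data known. Named beside the members were up to 4 genes by smallest p per list, comparison and direction, and the 2 genes most like each subunit. Itga2b in Notch3 -/- arrays and Myh11 fell outside that rule and were named after their values were seen, as were the markers quoted by median. Summed marker lists of neurons, microglia and macrophages, adipocytes and striated muscle are in the closing section. Alternatives were a pseudocount of 1, no brightness filter, quantile normalization, no trend, all 15 arrays in 1 fit, the aorta name series as a block, and leaving out each array.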

Additional observations from a re-analysis of the deposited data

Results flagged for a closer look

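Among 58 groups of 4 or 5 arrays at the integrin probe sets, 3 held an array whose gap to its nearest neighbour exceeded Dixon's 95% critical value, close to the 1 in 20 that chance gives. Itga7 read 261 in brain Notch3 +/- array I, under the 368 to 393 of the other 3 arrays. At a dim probe set, Itgav read 16.1 in brain Notch3 -/- array A, above the 0.324 to 2.69 of the other 4 arrays. At a dim probe set, Itgb1 read 11.3 in brain Notch3 +/- array G, above the 2.68 to 3.54 of the other 3 arrays.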

How the results depend on the processing

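No integrin probe set was called between genotypes in brain, in aorta or in the difference between tissues under any alternative run, except that with all 15 arrays in 1 fit 1 was called in brain (Itgb5, dimmest probe set). Over all probe sets, the 32 called in brain became 18 with no brightness filter and 137 with all 15 arrays in 1 fit, and 10 to 38 when single arrays were left out, with 15 without array G, 10 without H, 21 without C and 14 without D. The 0 called in aorta became 2 with all 15 arrays in 1 fit and 0 to 7 without single arrays, and the 4 called for the difference between tissues became 0 to 7. The cause was not tested. Between tissues the integrin calls were 14 to 16 without single arrays in each genotype, and 18 in Notch3 +/- and 21 in Notch3 -/- arrays with no brightness filter, which tests more probe sets. With a pseudocount of 1 the second Itga5 probe set gave -5.39 in Notch3 +/- arrays. Several uncalled differences changed sign when 1 array was left out. In brain Itga1 ranged from -0.0012 to 0.167, Itga5 from -0.119 to 0.316 and Itga8 from -0.201 to 0.0847. In aorta Itga7 ranged from -0.190 to 0.128, Itgb3 from -0.0358 to 0.572, and Itgb5 from -0.0603 to 0.0435 at its brightest, -0.0106 to 0.103 at the third and -0.0422 to 0.209 at its dimmest probe set. For the difference between tissues Itga8 ranged from -0.231 to 0.0551 and Itgav from -0.0158 to 0.207. Dim probe sets limit all of this: 16 of the 29 could not be tested in brain and 9 of the 29 in aorta. No paired analysis was possible because no replicate name is shared between groups.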

Other observations

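Marker lists of other cell types were summed per array. Neuron markers summed to 786 to 1283 in Notch3 -/- brain cells and 606 to 1674 in Notch3 +/- brain cells. In aorta they summed to 197 to 219 in Notch3 -/- arrays and 179 to 781 in Notch3 +/- arrays, with a median of 254 in the latter. Oligodendrocyte markers summed to 27887 to 39984 in Notch3 -/- brain cells and 23868 to 34466 in Notch3 +/- brain cells, against 835 to 993 in Notch3 -/- aorta and 813 to 1130 in Notch3 +/- aorta. Pdgfra stands in both the oligodendrocyte and the fibroblast list. It read 738 to 892 in Notch3 -/- aorta and 692 to 948 in Notch3 +/- aorta, and so made up most of the oligodendrocyte sums there. Microglia and macrophage markers summed to 9326 to 17681 in Notch3 -/- brain cells and 9425 to 17010 in Notch3 +/- brain cells, and astrocyte markers to 19424 to 31216 and 12997 to 34020 in those groups. Adipocyte markers summed to 815 to 1738 in Notch3 -/- aorta and 793 to 2146 in Notch3 +/- aorta, and to at most 58 on any brain array. Striated muscle markers summed to 503 to 623 in Notch3 -/- aorta and 596 to 881 in Notch3 +/- aorta.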
